A study of Mus musculus with 17 samples.

Results

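Toll-like receptors, the coreceptors that present ligand to them and the adaptors that carry their signal were followed as 10 genes (Tlr2, Tlr3, Tlr4, Tlr7, Tlr9, Tlr13, Cd14, Ly96, Myd88 and Ticam1). A row belonged to the set when its gene symbol equalled one of these 10 names, and 10 of the 21683 rows of the expression table did. RNA-Seq had been performed on peritoneal macrophages (PMs), white blood cells that gather in the abdominal cavity after thioglycollate, an irritant broth, and that were then cultured in plates. The cells came from C57BL/6 mice (C57BL/6J in the methods) that were male according to the methods, were 8 weeks old and had received 1 mL of 3% thioglycollate, given 3 days before collection by the labels and 4 days by the methods. After 4 h of attachment, treatment lasted 12 h. IKKβ F/F PMs that received PBS (F/F PBS, 6 libraries) were set against IKKβ F/F PMs that received 100 nM HIV protein Tat (F/F Tat, 6 libraries) to ask how Tat changes these genes, and F/F Tat against IKKβ ΔMye PMs that received 100 nM Tat (ΔMye Tat, 5 libraries) to ask how the Tat-treated state depends on IKKβ, the kinase that activates NF-κB. All 3 groups share a further background allele, so none is wild type. IKKβ F/F denotes IKKβ alleles flanked by loxP sites, which in IKKβ ΔMye mice are cut in myeloid cells by a Cre recombinase placed in 1 copy of Lyz2 (LysM-Cre). IKKβ ΔMye PMs given PBS were not analysed here, so no interaction was fitted, and what sets ΔMye Tat apart from F/F Tat may have been there before Tat. According to the methods, the Tat protein was produced in Escherichia coli, and endotoxin was then removed from it and measured below the detection limit. PBS, not a solution prepared from bacteria, was the control of these libraries. In a separate experiment on injected wild-type mice, the paper reports that such a solution (placebo) and PBS did not differ significantly in the macrophage genes measured. Nothing in the labels says whether libraries of a group came from separate animals. Heatmap legends in the paper describe each column as a biological replicate of mouse. The p-values measure the spread between libraries, and the labels alone do not exclude that it is technical.

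Toll-like receptors recognize microbial molecules. TLR4 and TLR2 act at the cell surface, where TLR4 binds bacterial lipopolysaccharide through MD-2 (the product of Ly96) after CD14 has handed it over, and TLR2 binds lipoproteins together with TLR1 or TLR6. TLR3, TLR7, TLR9 and TLR13 sit in endosomes and bind nucleic acids, namely double-stranded RNA, single-stranded RNA, CpG DNA and bacterial ribosomal RNA. MyD88 carries the signal of nearly all Toll-like receptors, while TRIF (the product of Ticam1) serves TLR3 and, from endosomes, TLR4, and both routes reach NF-κB and interferon regulatory factors. Macrophages are known to carry most of these receptors.

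The deposited values are TPM, transcript levels normalized for transcript length and library total, so that levels of different genes can be compared. They hold no read counts, and depth is unknown. Ikbkb, which encodes IKKβ, averaged 26.8 ± 1.99 TPM in the F/F PBS libraries, 23.2 ± 1.44 TPM with Tat and 16.4 ± 2.59 TPM after deletion of IKKβ (SD), and ΔMye Tat was below F/F Tat with no overlap (log2 fold change -0.51, adjusted p = 4.51e-05, limma). Since Cre removes only part of the gene, its total TPM checks the labels weakly. Of the 6 macrophage markers (Adgre1, Cd68, Itgam, Csf1r, Lyz2 and Mertk), all averaged at least 1 TPM in every group. Their sum ran from 25494 to 26489 TPM (F/F PBS), from 9135 to 9755 TPM (F/F Tat) and from 6849 to 7145 TPM (ΔMye Tat). Lyz2, which carries the Cre, made up most of it, and the other 5 summed to 3502–3879, 2279–2509 and 2528–2695 TPM in the same order. Each sum over 5 markers of another cell type was far lower, at most 25.7 TPM for B cells, 10.5 for T and NK cells, 1.90 for dendritic cells, 43.9 for mast cells, 5.36 for mesothelial cells and 106 for neutrophils, and the part of other cells in the results was not tested. In such bulk samples fewer cells of a type and less RNA per cell cannot be told apart. Between libraries the scale also moved, because the median log2 fold change of all 10451 tested genes was -0.65 with Tat and 0.22 between ΔMye Tat and F/F Tat. After median-ratio scaling, which sets the typical gene level between libraries, these medians were -0.026 and 0.0064, and the scaled value is given beside a difference described below where it changed its direction or call.

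All 10 genes passed the filter on low values. In F/F PBS they spanned from 203 ± 6.64 TPM for Cd14 to 2.64 ± 0.565 TPM for Tlr9 (SD, n = 6), in the order Cd14, Tlr2, Tlr13, Myd88, Tlr7, Ly96, Tlr4, Ticam1, Tlr3 and Tlr9. Among neighbours in this order, Tlr13 and Myd88 were the pair whose libraries overlapped. In F/F Tat the order was Cd14, Tlr2, Myd88, Tlr7, Ly96, Tlr3, Ticam1, Tlr13, Tlr4 and Tlr9, with overlap between Ly96 and Tlr3 and between Ticam1 and Tlr13. Tlr13 thus stood at rank 3 of 10 in F/F PBS and at rank 8 in F/F Tat. In ΔMye Tat it stood at rank 5, overlapping Ly96, and Ticam1 and Tlr4 overlapped further down.

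**Figure D1:**
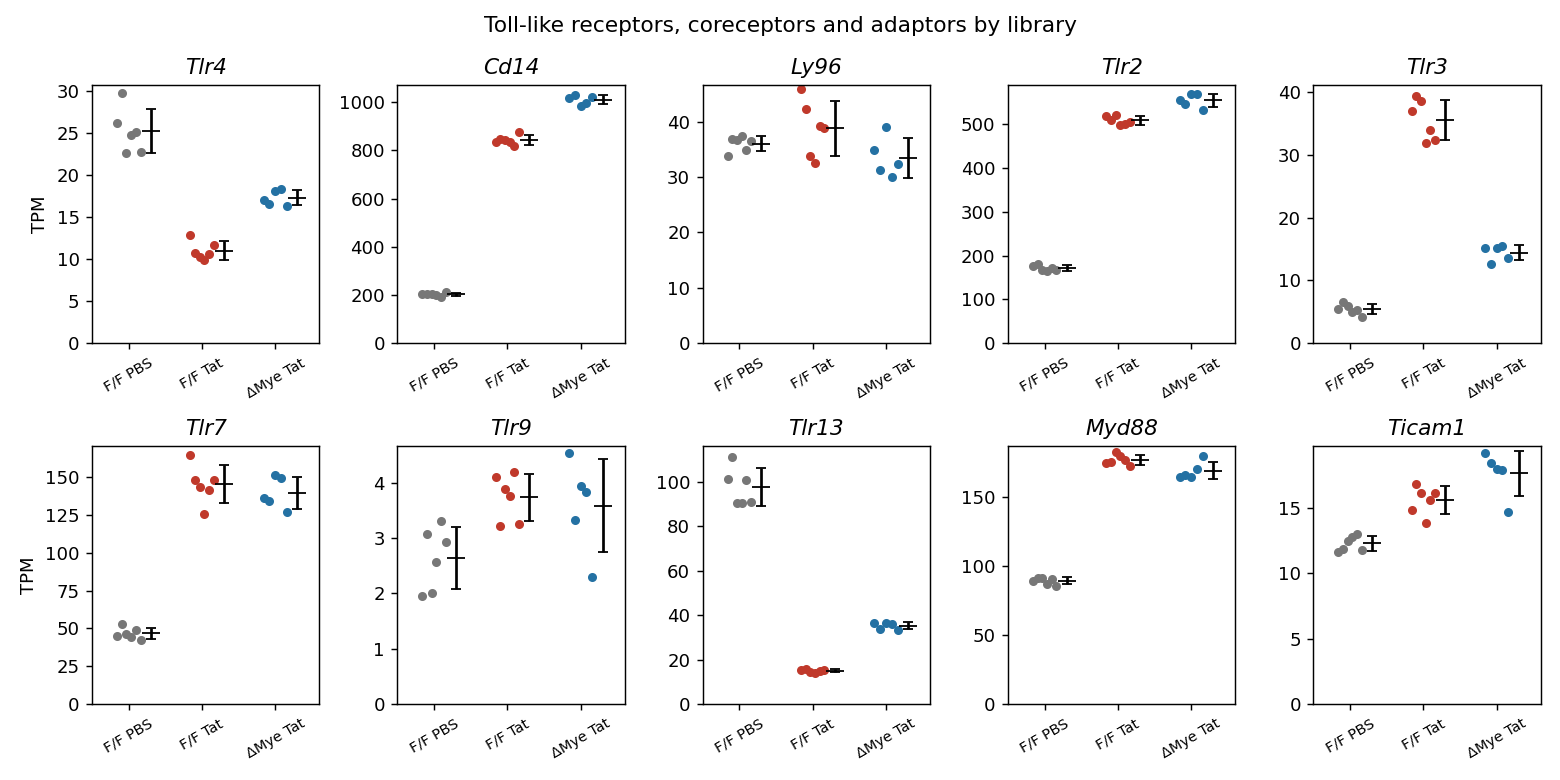
TPM of each of the 10 genes (y axis, linear and starting at 0) in the 6 F/F PBS, 6 F/F Tat and 5 ΔMye Tat libraries (x axis), with 1 point per library and the mean ± SD beside it. Tlr3 rose and Tlr13 fell with Tat and both lay between the F/F groups in ΔMye Tat, while Cd14 and Tlr2 were high in both Tat-treated groups.

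A gene was called at an adjusted p under 0.01 (limma, Benjamini-Hochberg over all tested genes) and a fold change over 3, and "rose" or "fell" is used below of a gene that passed the adjusted p. With Tat, 3 of the 10 genes were called higher (Cd14, Tlr3 and Tlr7) and 1 lower (Tlr13), where 5.21% of all tested genes were called higher and 19.4% lower. By the adjusted p alone 7 rose and 2 fell, against 17% and 67.6% of all tested genes, and Ly96 did neither. F/F Tat and F/F PBS did not overlap for 8 of the 10, a share near the 77.6% of all tested genes. The median log2 fold change of the 10 was 0.75, beside -0.65 for all tested genes. After scaling, 5 were called higher, with Tlr2 and Myd88 added, and 1 lower (8.51% and 9.73% of all tested genes).

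Between ΔMye Tat and F/F Tat, limma called 0 of the 10 in either direction, where 0.44% of all tested genes were called higher and 0.316% lower. Without the fold threshold 4 were higher in ΔMye Tat (Tlr2, Tlr4, Tlr13 and Cd14) and 1 was lower (Tlr3), against 38.8% and 8.87% of all tested genes. At an unadjusted p under 0.05, limma counted 5 higher and 3 lower, against 52% and 12% of all tested genes. After scaling, 2 were higher by the adjusted p (Tlr4 and Tlr13) and 5 were lower (Tlr2, Tlr3, Tlr7, Ly96 and Myd88), against 15.9% and 19.4%. Tlr4, Tlr13 and Tlr3 passed in the same direction on both scales. Set directly against F/F PBS, ΔMye Tat had 2 genes called higher (Tlr2 and Cd14) and 0 lower, where 4.38% and 11.1% of all tested genes were called. By the adjusted p alone 6 were higher and 2 lower (17.5% and 58.8%). ΔMye Tat and F/F Tat did not overlap for 5 of the 10 (36.6% of all tested genes). Both comparisons use the F/F Tat libraries, so their values are given side by side and were not correlated.

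**Figure D2:**
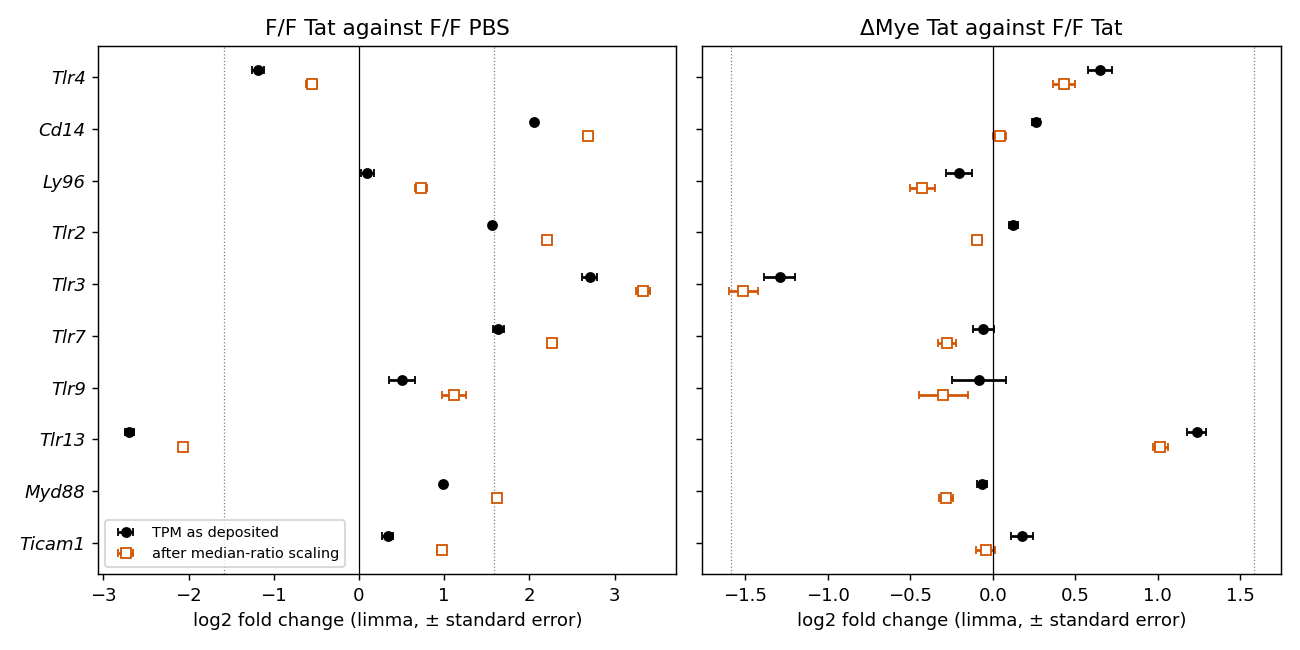
Log2 fold change (x axis, ± standard error from limma) of each of the 10 genes with Tat in F/F macrophages (left) and ΔMye Tat against F/F Tat (right), from TPM as deposited (filled circles) and after median-ratio scaling (open squares), with dotted lines at a 3-fold change. Scaling moved every value by about the same amount within a comparison, and in the right panel it turned the small positive values of Tlr2 and Ticam1 negative.

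The genes of the lipopolysaccharide receptor moved apart. Tlr4, the signalling receptor (chromosome 4, 66827584 to 66930284 of GRCm38, forward strand), was 22.6 TPM at its lowest, 25.0 at the median and 29.7 at its highest in F/F PBS. With Tat it was 9.90, 10.7 and 12.9 TPM, and in ΔMye Tat it was 17.1, 16.6, 18.1, 18.3 and 16.3 TPM. No library of one group reached another group, with ΔMye Tat in between. With Tat, Tlr4 was 2.29-fold lower by the ratio of means (log2 fold change -1.19, SE 0.072, adjusted p = 6.61e-12, limma), and the scaled value was -0.56. The deletion group was 1.57-fold above F/F Tat (log2 fold change 0.65, SE 0.076, adjusted p = 6.86e-07), with a scaled value of 0.43. Set against F/F PBS, ΔMye Tat was lower by TPM (-0.54), and the scaled value of -0.13 did not pass (adjusted p = 0.101, limma).

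Cd14, the coreceptor that passes lipopolysaccharide to MD-2 and TLR4 and lies on chromosome 18, was the most abundant of the 10 in every group. It was 193, 203 and 213 TPM (lowest, median and highest) in F/F PBS and 817, 839 and 878 TPM in F/F Tat. Its spread was small beside that gap, which was 4.15-fold (log2 fold change 2.05, SE 0.025, adjusted p = 5.10e-23, limma). The ΔMye Tat libraries held 1016, 1029, 984, 997 and 1021 TPM, all above F/F Tat, by 1.20-fold (log2 fold change 0.26, adjusted p = 9.42e-08). After scaling that difference was 0.041 and the groups overlapped (adjusted p = 0.421), so the deletion result for Cd14 depends on the scale while the Tat result does not. Neutrophils also express Cd14 and Tlr2, and the 5 neutrophil markers summed to 70.5–83.1 TPM (F/F PBS), 66.6–79.1 TPM (F/F Tat) and 89.2–106 TPM (ΔMye Tat), most of it S100a8. By group in that order, S100a8 averaged 53.8, 68.6 and 91.4 TPM. Retnlg (5.07, 0.671 and 0.298 TPM) and S100a9 (1.15, 0.842 and 0.716 TPM) had their lowest mean in ΔMye Tat. Mmp8 averaged 15.9, 2.57 and 3.82 TPM, and Ly6g at most 0.351 TPM. The part of neutrophils in the Cd14 and Tlr2 levels was not tested.

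Ly96 encodes MD-2, the protein that holds lipopolysaccharide on TLR4 (chromosome 1, 16688051 to 16709611, forward strand). It ran from 33.8 to 37.4 TPM in F/F PBS (median 36.7) and from 32.6 to 45.9 TPM in F/F Tat (median 39.1), and was 34.9, 31.2, 39.1, 30.1 and 32.3 TPM in ΔMye Tat. All 3 groups overlapped. The log2 fold change was 0.096 with Tat (adjusted p = 0.237, limma) and -0.21 for ΔMye Tat against F/F Tat (adjusted p = 0.0319), which passed without F/F Tat 10 or ΔMye Tat 21 (adjusted p = 0.00827 and 0.00814, limma). On the scaled values the same comparisons passed, at 0.73 and -0.43 (adjusted p = 2.51e-08 and 1.57e-04).

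Tlr2, the receptor of bacterial lipoproteins (chromosome 3, 83836272 to 83841767, reverse strand), was 165, 170 and 182 TPM (lowest, median and highest) in F/F PBS and 498, 508 and 521 TPM in F/F Tat. It rose 2.96-fold, just under the 3-fold threshold (log2 fold change 1.57, SE 0.027, adjusted p = 1.22e-20, limma), and the scaled value of 2.20 was past it. The ΔMye Tat libraries, at 555, 547, 569, 570 and 534 TPM, lay above all F/F Tat libraries by a small margin (log2 fold change 0.12, adjusted p = 9.74e-04). This direction turned after scaling (-0.097, adjusted p = 0.00894), so the sign of the deletion difference depends on the scale. The stretch before the first exon is shown because IKKβ acts through NF-κB, whose sites are often spelled GGG, any 3 bases and TTCC. RefSeq windows around the start (GRCm38.p6) were at hand for 6 of the 10 genes, and this spelling, read on both strands, was in 2 of the 6 (Tlr2 and Tlr3) and in 5.56% of all 32851 windows. The Tlr3 match lay in a window that overlaps exons and is not printed. In Tlr2 the match, in capitals, lies 173 to 164 bases before the RefSeq start. The first exon base of GENCODE lies further upstream, so the match is just before that base. The printed stretch ends there (chr3:83841768-83841858, reverse strand, 91 bases).
Tlr2: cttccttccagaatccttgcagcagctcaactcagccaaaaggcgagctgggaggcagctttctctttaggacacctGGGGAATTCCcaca
The spellings were set after these windows had been looked at, and a match is letters in a window, not a measured site. The interferon response element core (GAAA, any 2 bases and GAAA) was in the Myd88 window (3.44% of all windows) and the AP-1 spelling (TGA, any base and TCA) in that of Tlr9 (7.81%).

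The endosomal receptors responded in opposite directions. Tlr3, the receptor of double-stranded RNA (chromosome 8, 45395665 to 45411080, reverse strand), was 4.15, 5.36 and 6.51 TPM (lowest, median and highest) in F/F PBS and 31.9, 35.4 and 39.4 TPM in F/F Tat. This was the largest rise among the 10, at 6.59-fold (log2 fold change 2.71, SE 0.091, adjusted p = 5.42e-16, limma). In ΔMye Tat it was 15.1, 12.7, 15.2, 15.5 and 13.6 TPM. Every ΔMye Tat library lay above F/F PBS and below F/F Tat. F/F Tat was 2.46-fold above ΔMye Tat (log2 fold change -1.29, SE 0.095, adjusted p = 1.45e-09, limma), and scaling gave -1.51. A two-sided exact permutation test gave p = 0.00433, the least that 6 and 5 libraries allow. Against F/F PBS, ΔMye Tat was 2.68-fold higher (log2 fold change 1.41), and the scaled value of 1.82 passed 3-fold.

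Tlr13, the receptor of bacterial ribosomal RNA (chromosome X, 106143204 to 106160493, forward strand), moved the opposite way. Its lowest, median and highest levels were 90.4, 95.9 and 111 TPM in F/F PBS and 13.9, 15.0 and 15.9 TPM in F/F Tat. It fell 6.54-fold with Tat (log2 fold change -2.70, SE 0.052, adjusted p = 9.05e-20, limma), and by 2.07 on the log2 scale after scaling. The ΔMye Tat libraries, at 36.5, 33.9, 36.4, 36.0 and 33.4 TPM, were 2.36-fold above F/F Tat (log2 fold change 1.24, SE 0.055, adjusted p = 1.13e-12; scaled 1.02) and remained below every F/F PBS library. Of the 6 macrophage markers, 5 fell and 1 (Mertk) rose with Tat by the adjusted p, against 67.6% and 17% of all tested genes. Between ΔMye Tat and F/F Tat 3 were higher (Csf1r, Adgre1 and Cd68) and 1 was lower (Lyz2), against 38.8% and 8.87%. In ΔMye cells 1 copy of Lyz2 holds the Cre, so between genotypes its level cannot be read as a macrophage marker alone. Csf1r averaged 381 ± 32.3, 64.0 ± 6.51 and 104 ± 16.7 TPM in F/F PBS, F/F Tat and ΔMye Tat (SD), and Mertk 15.4 ± 1.21, 20.1 ± 1.57 and 24.3 ± 3.81 TPM. After scaling, 2 rose (Mertk and Adgre1) and 2 fell (Csf1r and Lyz2) with Tat (37.3% and 38.0% of all tested genes). Between ΔMye Tat and F/F Tat, 1 of the 6 was then higher and 1 lower (15.9% and 19.4%). The part of the macrophages' state or share in the Tlr13 values was not tested. The 179 bases before the first exon of Tlr13 (chrX:106143025-106143203, forward strand) are shown for contrast with Tlr2, as they hold none of the 3 spellings. The Ticam1 window holds none of the 3 either, and those of Myd88 and Tlr9 lack the NF-κB spelling, although these genes rose with Tat. Nothing follows from the spellings about the factors.
Tlr13: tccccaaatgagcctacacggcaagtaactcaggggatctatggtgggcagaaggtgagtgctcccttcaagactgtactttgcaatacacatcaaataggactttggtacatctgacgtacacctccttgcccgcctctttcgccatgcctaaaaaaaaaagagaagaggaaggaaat

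Tlr7, which binds single-stranded RNA (chromosome X, 167304929 to 167330558, reverse strand), was 42.6, 45.7 and 53.1 TPM (lowest, median and highest) in F/F PBS and 126, 146 and 165 TPM in F/F Tat. It rose 3.11-fold (log2 fold change 1.64, SE 0.062, adjusted p = 3.91e-15, limma). The ΔMye Tat libraries, at 136, 135, 151, 149 and 127 TPM, lay within the F/F Tat range, and no difference passed the test (log2 fold change -0.057, SE 0.065, adjusted p = 0.46). On the scaled values it was -0.28 and passed the adjusted p (3.33e-04), although the groups still overlapped.

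Tlr9, the receptor of CpG DNA (chromosome 9, 106222598 to 106226883, forward strand), was the least abundant of the 10. It ran from 1.96 to 3.31 TPM in F/F PBS (median 2.75) and from 3.22 to 4.19 TPM in F/F Tat (median 3.83), a 1.42-fold rise in which the groups overlapped (log2 fold change 0.51, SE 0.16, adjusted p = 0.00559, limma). Without F/F PBS 1 or 3 or F/F Tat 7, 9, 10 or 11 it no longer passed (adjusted p from 0.0102 to 0.0168, limma), nor without the filter on low values (0.0159), while on scaled values it was 1.12 with no overlap. In ΔMye Tat it was 4.55, 3.33, 3.95, 3.84 and 2.29 TPM, which spans both other groups (log2 fold change -0.083, SE 0.16, adjusted p = 0.676). B cells also express Tlr9, and the 5 B cell markers summed to 12.4–25.7 TPM (F/F PBS), 11.3–15.0 TPM (F/F Tat) and 8.33–13.0 TPM (ΔMye Tat), none of them 0 in all libraries. Their part in the Tlr9 level was not tested.

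Both adaptors among the 10 genes rose with Tat, by under 3-fold. Ticam2 and Tirap, adaptors listed below with the accessory proteins, moved apart. Ticam2 fell from 40.0 to 16.2 TPM (log2 fold change -1.29, scaled -0.66) and was 26.7 TPM in ΔMye Tat, while Tirap rose from 7.26 to 9.69 TPM. Myd88 (chromosome 9, 119335934 to 119341411, reverse strand) was 85.4, 89.9 and 91.4 TPM (lowest, median and highest) in F/F PBS and 172, 175 and 182 TPM in F/F Tat. The change was 1.98-fold (log2 fold change 0.99, SE 0.029, adjusted p = 4.91e-17, limma), and 1.62 on the scaled values, which is past 3-fold. In ΔMye Tat it was 164, 166, 164, 170 and 179 TPM, overlapping F/F Tat (log2 fold change -0.065, adjusted p = 0.0689), and the scaled value of -0.29 passed (adjusted p = 1.71e-05).

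Ticam1, which encodes TRIF (chromosome 17, 56269319 to 56276786, reverse strand), was 11.7, 12.2 and 13.0 TPM (lowest, median and highest) in F/F PBS and 13.9, 15.9 and 16.9 TPM in F/F Tat. It rose 1.27-fold without overlap (log2 fold change 0.34, SE 0.065, adjusted p = 6.85e-05, limma). The ΔMye Tat libraries held 19.2, 18.4, 18.0, 17.9 and 14.7 TPM, of which the last lay inside the F/F Tat range. The difference did not pass (log2 fold change 0.18, adjusted p = 0.0324, limma). It passed without ΔMye Tat 23 (0.24, adjusted p = 0.00173), and was -0.044 after scaling.

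Ratios between 2 of the genes within a library do not depend on the scale of the library and were compared for 7 pairs in both comparisons, which makes 14 exact two-sided permutation tests adjusted together. The coreceptor came to exceed its receptor far more with Tat, as the median of Cd14 over Tlr4 was 7.87 (F/F PBS), 77.3 (F/F Tat) and 59.2 (ΔMye Tat). Ly96 over Tlr4 went from 1.45 to 3.42 and was 1.97 in ΔMye Tat. Tlr2 over Tlr4 went from 6.78 to 47.0 and was 32.4 in ΔMye Tat. For these 3 pairs the 3 groups did not overlap, and Tlr4 was the gene that they share.

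Among the endosomal receptors, Tlr13 over Tlr7 had medians of 2.08, 0.104 and 0.252 in the same order, so that Tlr13 exceeded Tlr7 only in F/F PBS among the 3 groups. Tlr3 over Tlr7 was 0.118, 0.247 and 0.105, and Tlr9 over Tlr7 was 0.0600, 0.0266 and 0.0264. Ticam1 over Myd88, the balance of the adaptors, was 0.139, 0.0892 and 0.110. With Tat all 7 pairs moved without overlap (exact permutation test, p = 0.00216, the least that 6 and 6 libraries allow, adjusted p = 0.00433). Between ΔMye Tat and F/F Tat, 5 pairs did not overlap (adjusted p = 0.00505, exact permutation test), Ticam1 over Myd88 overlapped and its adjusted p was 0.0373, and Tlr9 over Tlr7 gave p = 0.857. Without any 1 of 8 libraries (F/F Tat 7, 9, 10 or 11, or ΔMye Tat 19, 20, 21 or 22) the adjusted p of Ticam1 over Myd88 was above 0.05, reaching 0.0821. All pairs but Ticam1 over Myd88 hold Tlr4 or Tlr7, so the pairs are not independent. The share of other gene pairs without overlap was not computed. Of all tested single genes, 77.6% did not overlap with Tat and 36.6% between ΔMye Tat and F/F Tat.

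**Figure D3:**
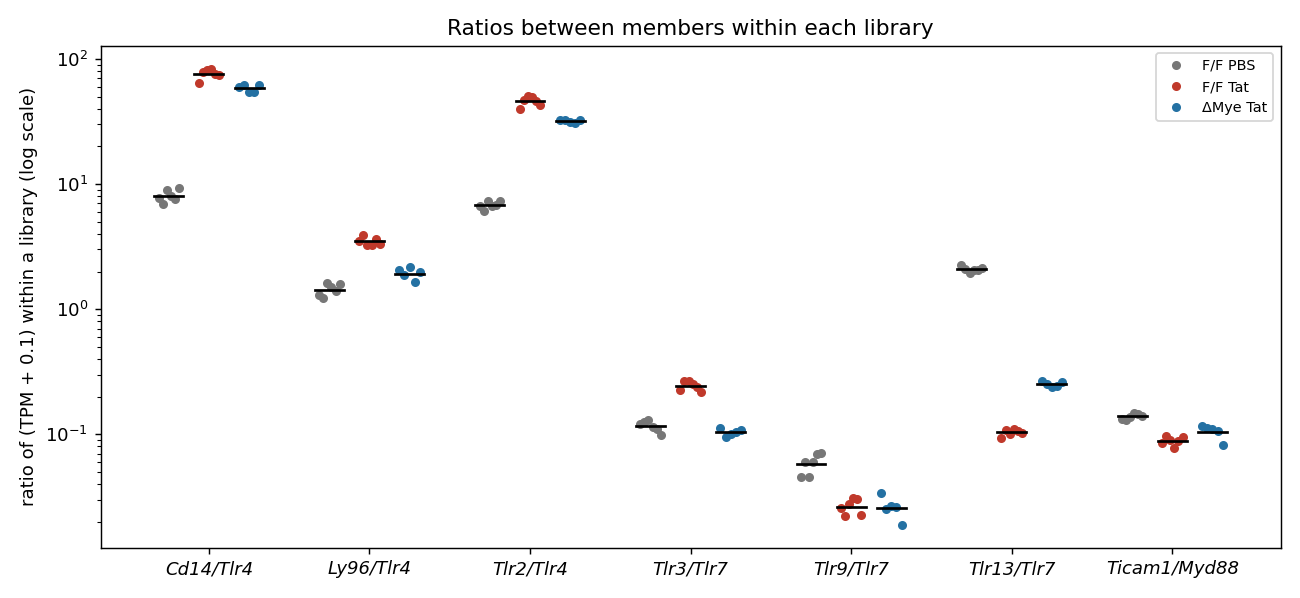
Ratio of TPM + 0.1 between 2 genes of the same library (y axis, log scale) for 7 pairs (x axis), with 1 point per library and a bar at the geometric mean of F/F PBS, F/F Tat and ΔMye Tat. Cd14/Tlr4 went from a median of 7.87 to 77.3 with Tat, and Tlr13/Tlr7 from 2.08 to 0.104.

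Of the other 6 mouse Toll-like receptors listed, 3 passed the filter on low values, and Tlr5, Tlr11 and Tlr12 averaged at most 0.502 TPM in any group. The partners of TLR2 both rose with Tat, Tlr1 from 22.8 to 47.0 TPM (log2 fold change 1.05, and 1.68 scaled, past 3-fold) and Tlr6 from 17.3 to 26.1 TPM (0.58), and both stayed near that level in ΔMye Tat (50.1 and 27.6 TPM, adjusted p = 0.239 and 0.298, limma). Tlr1 shares 20.02% and Tlr6 16.6% of its 31-base sequences with other genes, so reads may be split between them. Tlr8, an endosomal receptor of RNA, averaged 26.5, 19.7 and 36.1 TPM in the same order of groups. Its Tat difference turned with the scale (-0.41 by TPM and 0.22 scaled), while ΔMye Tat was above F/F Tat on both (0.87 and 0.65, adjusted p = 9.02e-07 and 9.14e-06, limma), with no overlap.

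Of 15 listed accessory, chaperone and sorting proteins, 14 were tested, of which 5 rose and 6 fell with Tat by the adjusted p (17% and 67.6% of all tested genes), with a median log2 fold change of -0.045 beside -0.65 for all tested genes. The highest changes were those of Slc15a3, an endosomal peptide and histidine transporter (339 to 1835 TPM), Trim30a, which encodes a TRIM family protein (85.1 to 273 TPM), and Ly86, which encodes MD-1, the MD-2 relative that binds CD180 (95.5 to 220 TPM). The lowest were those of Nrros, a leucine-rich repeat protein (177 to 47.2 TPM), the chaperone Cnpy3, which helps Toll-like receptors fold (73.8 to 21.4 TPM), and Rab11fip2 (1.91 to 0.711 TPM). After scaling, 9 rose and 5 fell (37.3% and 38.0% of all tested genes), Ly86 passed 3-fold (1.84), and Nrros (-1.28) and Cnpy3 (-1.15) no longer did. Between ΔMye Tat and F/F Tat, 4 were higher and 5 lower (38.8% and 8.87% of all tested genes), or 2 and 6 after scaling (15.9% and 19.4%). Ly86 was lower in ΔMye Tat, at 111 TPM (log2 fold change -0.99, adjusted p = 1.89e-13, limma).

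Below the adaptors, 18 of 19 listed signalling genes were tested, of which 8 rose and 6 fell with Tat, where 17% and 67.6% of all tested genes did (median log2 fold change 0.13 beside -0.65). The highest were Irf7, a transcription factor of the interferon response (385 to 1866 TPM), Peli1, a ubiquitin ligase (18.0 to 73.1 TPM), and Irak2, a kinase of the MyD88 complex (42.9 to 75.4 TPM). The lowest were the kinases Irak1 (41.9 to 14.4 TPM) and Irak4 (22.6 to 9.37 TPM) and Tab1, a partner of the kinase TAK1 (9.12 to 3.58 TPM). Irak1 and Irak4, which act downstream of MyD88, also fell on scaled values (-0.89 and -0.64), and of the 18 genes 13 rose and 4 fell after scaling (37.3% and 38.0% of all tested genes). In ΔMye Tat, 7 of the 18 were higher than in F/F Tat and 2 were lower, shares near the 38.8% and 8.87% of all tested genes, and after scaling 2 were higher and 6 lower (15.9% and 19.4%). Irf7 was 1208 TPM (log2 fold change -0.63, adjusted p = 8.22e-12, limma) and Irak1 was 24.7 TPM (0.76, adjusted p = 7.02e-06).

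The genes whose pattern was most like that of each receptor were sought among 5815 genes as those with the smallest root mean square difference of centred log2 values over the 17 libraries. For Tlr3 they were Usp18 (difference 0.15), at 98.7, 685 and 285 TPM by group, and Ifit3 (0.18), at 148, 1110.4 and 458 TPM. For Tlr13 they were Pld4 (0.099), at 50.8, 7.91 and 18.7 TPM, and Pira2 (0.12), at 89.9, 15.8 and 36.6 TPM. Tlr4 was followed most closely by Mospd2 (0.091) and Selenop (0.10).

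For Tlr7 the nearest were Trim30a (0.070) and Rffl (0.082), and for Tlr2 they were Rffl (0.072) and Pla2g4a (0.075), so 1 gene was near both. Cd14 was nearest to Acp5 (0.082) and Fpr2 (0.10), and Ly96 to Cnp (0.10) and Tmem106a (0.11). Myd88 was nearest to Gsdmd (0.066) and Slfn1 (0.069), Ticam1 to Tbc1d9b (0.081) and Dnajc21 (0.082), and Tlr9 to Tbc1d9 (0.16) and Dennd1a (0.16). These distances describe the same 17 libraries, which share treatment, genotype and scale.

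**Figure D4:**
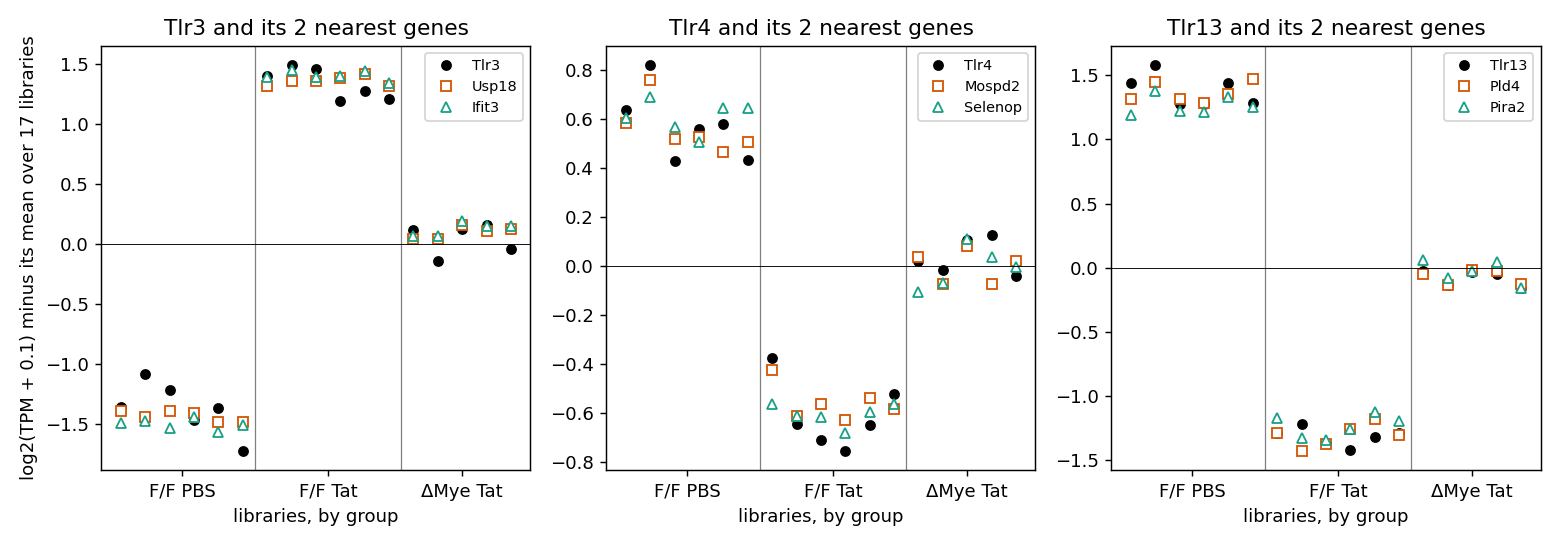
Log2(TPM + 0.1) minus its mean over the 17 libraries (y axis) for Tlr3, Tlr4 and Tlr13 (filled circles) and the 2 genes nearest to each (open symbols), with libraries ordered by group (x axis). Each trio holds 3 separate levels, with ΔMye Tat between F/F PBS and F/F Tat.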

How the data were processed

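RNA-Seq was analysed in 17 libraries of PMs, grouped by the sample labels. The background allele that all groups carry is not reported here. The authors made the TPM before deposition, running Salmon with the Ensembl genes of GRCm38, and listed them by gene symbol, with no normalization between libraries stated for these values. For their own test they normalized read counts by TMM, and those counts were not used here. The listed TPM sum to 889318–903576 per library and no 2 libraries were identical. TPM give neither depth nor counting error, so precision was judged from the spread between libraries.

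The limma test (version 3.58.1, R 4.3.3) used log2(TPM + 0.1) of the 10451 genes that reached 1 TPM in 5 or more libraries. All 17 libraries entered 1 fit with lmFit, contrasts.fit and eBayes (trend), two-sided, a step tested on simulated data. Folds are ratios of mean TPM, and log2 fold changes are on the log2(TPM + 0.1) scale, which understates changes of low genes. Single genes and within-library ratios were also compared by exact permutation tests.

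Named genes were the 10 genes, all other listed Toll-like receptors, the 3 highest and 3 lowest Tat changes of the other lists, the 2 genes nearest in pattern with a mean of at least 10 TPM, and Ikbkb. Csf1r, Mertk, Adgre1, Cd68, Lyz2, S100a8, S100a9, Retnlg, Mmp8 and Ly6g were named as markers, and Ticam2 and Tirap as adaptors, after their values were seen. The members and lists were chosen with earlier results of these data known. The settings varied were the pseudocount (0.5 or 1), the filter (none, or 5 TPM), the scaling (median-ratio or quantile), the fold threshold (none), the test (exact Wilcoxon, or robust eBayes with array weights) and the libraries (the compared groups alone, or all but 1). Coordinates come from GENCODE (GRCm38) and promoter windows, 250 bases before to 50 after the start, from RefSeq (GRCm38.p6). Of the 10 genes, Ly96 shares 1.27% and Tlr4 0.559% of their 31-base sequences with other genes, and the others share none. Other software was Python 3.11.15 with scipy 1.17.1, pandas 2.3.3, numpy 2.4.6 and matplotlib 3.10.9.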

Additional observations from a re-analysis of the deposited data

Results flagged for a closer look

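Ticam1 in ΔMye Tat library 23 was, at 14.7 TPM, far below the other libraries of its group, of which the nearest held 17.9 TPM. The gap was 0.721 of the group's range, above the critical value of 0.710 for 5 libraries. It was the only one among the 33 groups of values examined, and chance alone puts about 1 in 20 groups past this limit. Library 23 was the lowest of its group for 6 of the 10 genes (Tlr2, Tlr4, Tlr7, Tlr9, Tlr13 and Ticam1) and for Ikbkb, at 12.8 TPM, and the highest for Myd88. Its median-ratio factor, 0.90, was also the lowest of the group, in which the others ran from 0.958 to 1.00. Library 23 was not alone in this. F/F Tat 10 was the lowest of its group for 7 of the 10 genes, and its factor, 0.796, was the lowest of a group whose others ran from 0.822 to 0.845. F/F PBS 2 was the highest of its group for 6 of the 10 genes. How often these libraries were the extreme over all tested genes was not counted, so the counts cannot be read as particular to the 10.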

How the results depend on the processing

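The counts of genes called moved with the scale and the fold threshold. With Tat, the 3 called higher became 5 after median-ratio scaling and 7 without a fold threshold, and the 1 called lower became 2 without it. For ΔMye Tat against F/F Tat, the 0 and 0 called became 4 higher and 1 lower without a fold threshold. For ΔMye Tat against F/F PBS, 2 were called higher and 0 lower, and the 2 became 4 after scaling, 4 after quantile normalization and 6 without a fold threshold, which also gave 2 lower. With 1 library left out these counts ran from 3 to 3, 1 to 1, 0 to 0, 0 to 0, 2 to 3 and 0 to 0. Tlr7 was 2.99-fold higher in ΔMye Tat than in F/F PBS and passed 3-fold without F/F PBS 2 or 5 or ΔMye Tat 19, 20 or 23.

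Directions turned for Tlr2 (-0.097) and Ticam1 (-0.044) between ΔMye Tat and F/F Tat after scaling, and for Ticam1 also after quantile normalization (-0.032). With 1 library left out, the same difference ran from -0.17 to 0.064 for Tlr9 and from -0.13 to 0.087 for the log2 ratio of Tlr9 over Tlr7, which was above 0 without F/F Tat 10 (0.018), F/F Tat 11 (0.014) or ΔMye Tat 23. Tlr9 itself turned without ΔMye Tat 23. Ly96 between ΔMye Tat and F/F PBS, -0.11 by TPM, was 0.30 after scaling and 0.13 after quantile normalization. Apart from the scalings, whose construction sets the typical gene level, the cause was not tested. With Tat, no log2 fold change of the 10 genes turned among 99 values under other settings or among 170 values with 1 library left out. The exact Wilcoxon test and the dropped fold threshold reuse the main log2 fold changes, so their values among the 99 could not turn. Of the 99, 92 stayed on their side of the threshold and 7 came to pass it. These 7 were Tlr2 and Myd88 after median-ratio scaling, and Tlr2, Tlr4, Tlr9, Myd88 and Ticam1 once the fold threshold was dropped. The exact Wilcoxon test cannot fall below an adjusted p of 0.0118 for ΔMye Tat against F/F Tat, so it could call nothing there. No paired analysis was possible because the library numbers are not shared between groups. Depth is unknown from TPM, which limits Tlr9, at a few TPM, most.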
